A study of Mus musculus with 6 samples.

Results

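This report is concerned with 10 integrin subunit genes, Itga2b, Itga4, Itga5, Itga6, Itgal, Itgam, Itgb1, Itgb2, Itgb3 and Itgb7, in acute myeloid leukemia cells of the mouse spleen. The genes were chosen by name from the 53618 named genes of the expression table, and all 10 had a row. Bulk RNA-seq was performed on 6 libraries of GFP+Lin−c-Kit+ splenocytes, with 3 mice per group and 1 library per mouse. All mice had received leukemia cells that were Usp18+/f and carried UBCER-Cre, a tamoxifen-activated Cre recombinase driven by a ubiquitous promoter. The leukemia was made by retroviral delivery of AE9a, a truncated AML1-ETO fusion protein, together with GFP, which marks the leukemia cells. The oil group (Usp18+/f) was injected with oil and the tamoxifen group (Usp18+/Δ) with tamoxifen, and cells were sorted 3 days after the first injection. No group received tamoxifen without a floxed allele, so effects of the drug and of the loss of a Usp18 allele cannot be told apart. The comparison asks which transcripts differ when an allele of Usp18, a negative regulator of interferon signaling, is deleted in leukemia cells.

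An integrin is a heterodimer of an α and a β subunit that spans the plasma membrane and binds matrix proteins or counter-receptors on other cells. Its head is switched from a low to a high affinity form when talin and kindlin bind the tail of the β subunit. On hematopoietic cells, VLA-4 (Itga4 with Itgb1) binds VCAM-1 and fibronectin, the Itga4 and Itgb7 pair binds MAdCAM-1, LFA-1 (Itgal with Itgb2) binds ICAMs, Mac-1 is Itgam with Itgb2, Itga5 and Itga6 join Itgb1 as fibronectin and laminin receptors, and Itga2b with Itgb3 is the fibrinogen receptor of platelets.

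The libraries held 19172471 to 23785143 reads, and values are given as normalized counts, which are a gene's reads after division by the size factor of the library. The library labelled tamoxifen 1 stood apart: its median Pearson correlation with the other 5 libraries was 0.913 on the log2 scale, against 0.981 to 0.990 for the others, and 0.00923% of its reads were mitochondrial, against 1.011% to 1.56% elsewhere. The results of the integrin genes are therefore given with and without it. Usp18 was higher in the tamoxifen group, where an allele is labelled as deleted. It had 217, 214 and 176 normalized counts in oil 1, 2 and 3 against 477, 329 and 284 in tamoxifen 1, 2 and 3. These counts cover the whole gene, and the deleted part was not separated. They cannot show whether an allele was lost, so oil and tamoxifen name here only what the libraries are labelled as. Among markers of the sorted cells, Kit had 4687 to 10976 normalized counts and Runx1t1, the mouse gene of ETO, 1532 to 2097, but Mpo did not exceed 20.2, Elane 11.1 and Cd33 5.05. All 11 mast cell and basophil markers passed the filter on low values, with a summed level of 90901 to 106495 in the oil group and 67734 to 119926 in the tamoxifen group. The 7 erythroid markers summed to 49381 to 69331 and 54623 to 85520. Neutrophil markers summed to 17.1 to 28.0 and 40.0 to 71.7. Dendritic cell markers summed to 85.3 to 130.2 and 83.9 to 175, nearly all from Zbtb46, and endothelial markers to 1026 to 1247 and 1059 to 2807, nearly all from Plvap. No Ly6g or Cd3e read was seen in any library.

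The largest subunit transcript per length over the 6 libraries was on average Itgb1, the β subunit that pairs with Itga4, Itga5 and Itga6, at 5732 ± 206 normalized counts per kilobase of exon (SD, n = 3) in oil and 3989 ± 1099 in tamoxifen. Itgb7, which also pairs with Itga4, had 4073 ± 154 and 4803 ± 1678, below Itgb1 in the oil mean and above it in the tamoxifen mean. On this scale Itgb1 stood above 98.6% and Itgb7 above 98.4% of the 12134 tested genes with an exon length. Next came the α subunits Itga6 (560.2 ± 6.31 and 469 ± 91.6) and Itga4 (504 ± 3.20 and 415 ± 216), above 80.5% and 78.0% of genes. Itgb2, the β subunit of leukocytes, had 298 ± 34.8 and 341 ± 55.9. Its partner Itgal had 196 ± 27.7 and 342 ± 117, and the fibronectin receptor subunit Itga5 had 236 ± 19.7 and 256 ± 98.0. Itga2b had 31.4 ± 3.27 and 81.2 ± 42.2, above 30.1% of genes, and its partner Itgb3 had 6.49 ± 1.49 and 7.72 ± 0.692, above 7.63%.

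In the libraries labelled oil, every neighbouring pair in this order was separated except Itgal and Itga5, whose values overlapped. Over all 6 libraries only Itgb7 and Itga6, Itga5 and Itga2b, and Itga2b and Itgb3 did not overlap. Summed over the α subunits among the 10 genes, Itga6 made up 36.7% ± 0.976 (SD, n = 3) in oil, Itga4 33.0% ± 1.18, Itga5 15.4% ± 0.693, Itgal 12.8% ± 1.30 and Itga2b 2.05% ± 0.135. Of the sum over the 4 β subunits among them, Itgb1 made up 56.7% ± 1.19, Itgb7 40.3% ± 1.26, Itgb2 2.95% ± 0.405 and Itgb3 0.0643% ± 0.0152 in oil. Subunits outside the 10 genes are not in these sums. In tamoxifen 1 and 3 the order of the leading β subunits was turned, with Itgb7 at 67.1% and 49.7% and Itgb1 at 28.8% and 46.3%. In tamoxifen 2, Itgb1 made up 57.7% and Itgb7 38.9%, as in the oil order.

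**Figure D1:**
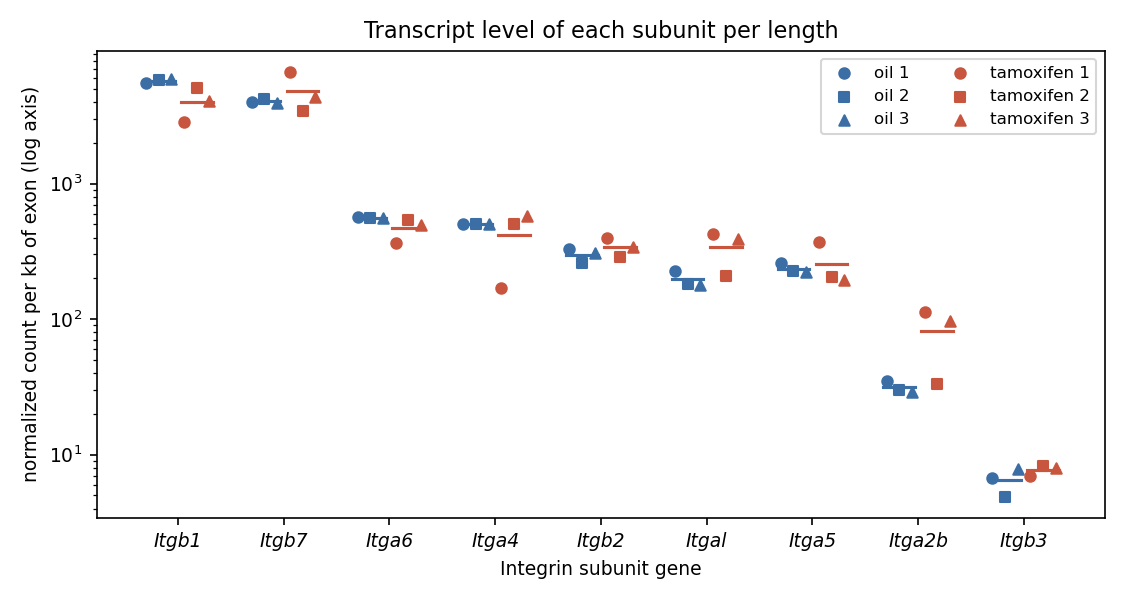
Normalized count per kilobase of exon (log axis) of the 9 integrin subunit genes that passed the filter, in order of their mean over 6 libraries. Points are libraries, with 3 labelled oil in blue and 3 labelled tamoxifen in red, and lines are group means: Itgb1 and Itgb7 are at 2865 or more in all 6 libraries, and Itgb3 lies between 4.90 and 8.22.

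For the comparison of tamoxifen with oil, limma was run on 12298 genes. No gene passed an adjusted p of 0.05 over the 6 libraries (0.0% of genes), and none of the 9 tested integrin genes did. DESeq2 called 71 genes (0.464% of those with an adjusted p) and edgeR 0, with no member among them. At an unadjusted p under 0.05, 4.47% of all genes and 3 of the 9 members passed. Itga2b and Itgal were higher in tamoxifen, as were 3.23% of all genes, and Itgb1 was lower, as were 1.24%. Without tamoxifen 1, 0.333% of genes passed the adjusted threshold, again with no member. In bulk samples, fewer cells of a kind and less RNA per cell cannot be told apart. Here an unadjusted p under 0.05 was met by 12.1% of genes and by 4 members, the same 3 genes and Itga5. Itga2b and Itgal were again higher (6.04% of genes) and Itgb1 and Itga5 lower (6.06%). The median log2 fold change of the 9 members was 0.18, beside −0.02 for all tested genes, and 0.07 beside −0.02 without tamoxifen 1.

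**Figure D2:**
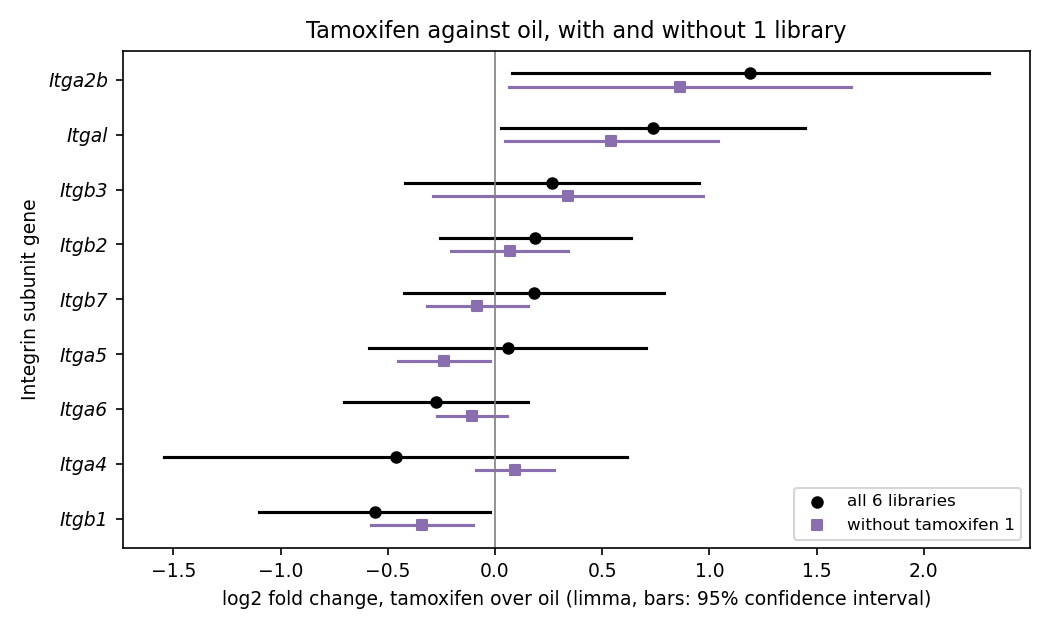
Log2 fold change of tamoxifen over oil for 9 integrin subunit genes, from limma on log2(normalized count + 1), with 95% confidence intervals. Black circles use all 6 libraries and purple squares leave out tamoxifen 1; the estimates run from −0.56 for Itgb1 to 1.19 for Itga2b with all libraries, and those of Itga4, Itga5 and Itgb7 lie on the other side of 0 without tamoxifen 1.

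Itgb1 encodes the common β subunit of VLA-4 and of the Itga5 and Itga6 receptors (ENSMUSG00000025809.15, chr8:128685654-128733200, plus strand, GRCm38). Normalized counts were 22466, 23606 and 24105 in oil and 11693, 20656 and 16490.0 in tamoxifen. All 3 tamoxifen libraries were below all 3 oil libraries. Groups did not overlap in this direction for 9.69% of all genes, and among the 9 members this held for Itgb1 and Itga6. None of the 9 lay wholly above oil. Without tamoxifen 1, Itgb1, Itga6 and Itga5 lay below oil, as did 16.8% of genes, and Itgb3 lay above, as did 12.6%. The means were 23392 ± 840.1 and 16279 ± 4485 (SD, n = 3). In limma this was −0.56 on the log2 scale (SE 0.22, 95% confidence interval −1.10 to −0.02, adjusted p 0.666). Without tamoxifen 1 it was −0.34 (SE 0.11, −0.58 to −0.10) with an adjusted p of 0.250. After a correction of each library for GC content, the log2 values were 14.43, 14.51 and 14.55 in oil and 14.21, 14.31 and 14.00 in tamoxifen, and the groups still did not overlap.

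Itga4, the α subunit of VLA-4 (ENSMUSG00000027009.18, chr2:79255426-79333123, plus strand), had 7051, 7079 and 6992 normalized counts in oil and 2359, 7026 and 8026 in tamoxifen. The oil libraries lay close together, tamoxifen 2 lay among them, tamoxifen 3 lay above and tamoxifen 1 far below. The log2 fold change was −0.46 (SE 0.45, −1.54 to 0.62, adjusted p 0.667 in limma) with all libraries and 0.09 (SE 0.08, −0.09 to 0.27, adjusted p 0.688) without tamoxifen 1. The sign of the fold change with all libraries thus came from tamoxifen 1. Of its exon bases, 8.04% lie in Cerkl, a gene on the opposite strand, and the strand setting of the counting is not given in the sources used here.

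Itga6, the α subunit of a laminin receptor (ENSMUSG00000027111.15, chr2:71745616-71858416, plus strand), had 5120.0, 5012 and 5035 normalized counts in oil and 3302, 4887 and 4503 in tamoxifen. As for Itgb1, each tamoxifen library was below each oil library. The log2 fold change was −0.28 (SE 0.18, −0.71 to 0.15, adjusted p 0.666 in limma), and −0.11 (SE 0.07, −0.27 to 0.06, adjusted p 0.593) without tamoxifen 1. The oil values differed from one another by less than their distance to tamoxifen 2, but the fitted interval included 0 in both analyses. Itga5 (ENSMUSG00000000555.8, chr15:103344286-103366763, minus strand) had 1274, 1109 and 1102 in oil and 1820.0, 1011 and 957 in tamoxifen. Tamoxifen 1 was the highest library of the 6, and tamoxifen 2 and 3 were the lowest. Its log2 fold change was 0.06 (SE 0.27, −0.59 to 0.70, adjusted p 0.917) and turned to −0.24 (SE 0.10, −0.45 to −0.02, adjusted p 0.369) without tamoxifen 1.

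Itgb7 encodes the β subunit of the mucosal homing receptor (ENSMUSG00000001281.10, chr15:102215995-102231944, minus strand). It had 11127, 11763 and 10954 normalized counts in oil and 18465, 9446 and 11999 in tamoxifen, which placed the tamoxifen libraries on both sides of the oil range. The log2 fold change was 0.18 (SE 0.25, −0.42 to 0.79, adjusted p 0.727 in limma) with all libraries and −0.08 (SE 0.10, −0.32 to 0.15, adjusted p 0.790) without tamoxifen 1.

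Itgal, the α subunit of LFA-1 (ENSMUSG00000030830.18, chr7:127296260-127335138, plus strand), had 1500.1, 1198 and 1173 normalized counts in oil and 2809, 1366 and 2556 in tamoxifen. Tamoxifen 1 and 3 were above all oil libraries, and tamoxifen 2 lay within the oil range. The means were 1290.3 ± 182 and 2244 ± 771 (SD, n = 3). In limma this was 0.74 on the log2 scale (SE 0.30, 0.03 to 1.45, adjusted p 0.666), and 0.54 (SE 0.22, 0.05 to 1.04, adjusted p 0.373) without tamoxifen 1. Itgal also marks lymphocytes: the 7 T cell markers summed to at most 8.08 normalized counts, and the 6 NK cell markers to at most 0.929, in any library. A set of 6 B cell markers summed to 36.8, 25.1 and 32.5 in oil and 57.5, 70.7 and 65.5 in tamoxifen, higher in all 3, and Ighm, the highest of them on average, had 21.6, 3.86 and 20.4 in oil and 33.2, 46.5 and 34.6 in tamoxifen. Their part in the Itgal values was not tested. Its β partner Itgb2 (ENSMUSG00000000290.13, chr10:77530252-77565708, plus strand) had 1002, 793 and 933 in oil and 1214, 873 and 1034 in tamoxifen, and the groups overlapped. Its log2 fold change was 0.19 (SE 0.19, −0.26 to 0.63, adjusted p 0.668) and 0.07 (SE 0.12, −0.20 to 0.34, adjusted p 0.861) without tamoxifen 1.

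Itga2b, the α subunit of the platelet fibrinogen receptor, is also known on early hematopoietic progenitors and mast cells (ENSMUSG00000034664.13, chr11:102453297-102470122, minus strand). It had 191, 164 and 158 normalized counts in oil and 616, 182 and 531 in tamoxifen. As for Itgal, tamoxifen 1 and 3 were high and tamoxifen 2 lay within the oil range. The means were 171 ± 17.8 and 443 ± 230.1 (SD, n = 3), which limma fitted as a log2 fold change of 1.19 (SE 0.46, 0.08 to 2.30, adjusted p 0.666 in limma). Without tamoxifen 1 it was 0.86 (SE 0.35, 0.07 to 1.66, adjusted p 0.376). Itgb3, its partner (ENSMUSG00000020689.4, chr11:104608000-104670476, plus strand), had only 39.5, 28.9 and 46.4 in oil and 40.9, 48.5 and 47.3 in tamoxifen, so all 6 libraries held similar small values. Its log2 fold change was 0.27 (SE 0.29, −0.42 to 0.95, adjusted p 0.676) and 0.34 (SE 0.28, −0.29 to 0.97, adjusted p 0.669) without tamoxifen 1.

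Megakaryocyte and platelet markers were compared with Itga2b. The 12 markers summed to 6140 to 6359 normalized counts in oil, to 14450 in tamoxifen 1, and to 5883 and 5852 in tamoxifen 2 and 3. Most of this sum came from Gp5, with 4733 to 5235 in the other 5 libraries and 13774 in tamoxifen 1. Gp1ba, the next highest of these markers, went the other way in tamoxifen 1. It had 874, 822 and 915 in oil and 257, 835 and 752 in tamoxifen. Vwf had 218, 221 and 234 in oil and 328, 234 and 296 in tamoxifen, higher in all 3 tamoxifen libraries. Ppbp had 8 reads or fewer in every library. Treml1 was lower in all 3, at 58.5 to 62.7 in oil and 40.0 to 55.6 in tamoxifen, while Gp6 and Gp1bb were at 0 in every library and Pf4 did not exceed 7.67. Gp1bb shares 92.9% of its exon bases with other genes on its strand, so its 0 cannot be read as absence. Of the mast cell and basophil markers, Tpsb2 had 7.19 to 16.4 in oil and 46.0, 153 and 148 in tamoxifen, and Mcpt8 had 26.0 to 40.9 in oil and 60.1 to 96.4 in tamoxifen, higher in all 3. Cpa3 had 3823, 3992 and 4174 in oil and 4074, 7774 and 9431 in tamoxifen. Without tamoxifen 1, Tpsb2 and Cpa3 passed the adjusted threshold in limma (3.59 and 1.10 on the log2 scale, adjusted p 0.00277 and 0.00183), whereas Ms4a2 was lower in all 3, at 17754 to 19301 in oil and 2965, 16499 and 14036 in tamoxifen. The part of either marker list in the Itga2b values was not tested.

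Itgam encodes CD11b, the α subunit of Mac-1 and a marker of myeloid cells, which lineage antibody mixtures commonly contain (ENSMUSG00000030786.18, chr7:128062640-128118491, plus strand). The table holds 2 rows of this name, and together they held 1 read, in tamoxifen 2. It was the only member that did not pass the filter, and no fold change is given. In GENCODE vM21, 68.7% of its exon bases lie in a second gene model on the same strand, Gm49368 (chr7:128062683-128128160), which has no row in the table. How reads shared by 2 models were counted is not given in the sources used here, so low transcript and uncounted reads cannot be told apart from the value alone. The remaining 31.3% of exon bases lie in no other gene. Its neighbour Itgax, with no exon base in another gene, also had 1 read in all, and the 13 macrophage and monocyte markers summed to 346 to 724 normalized counts, of which Ccr2 took 404 to 536 in all libraries but tamoxifen 1, which had 46.0.

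**Figure D3:**
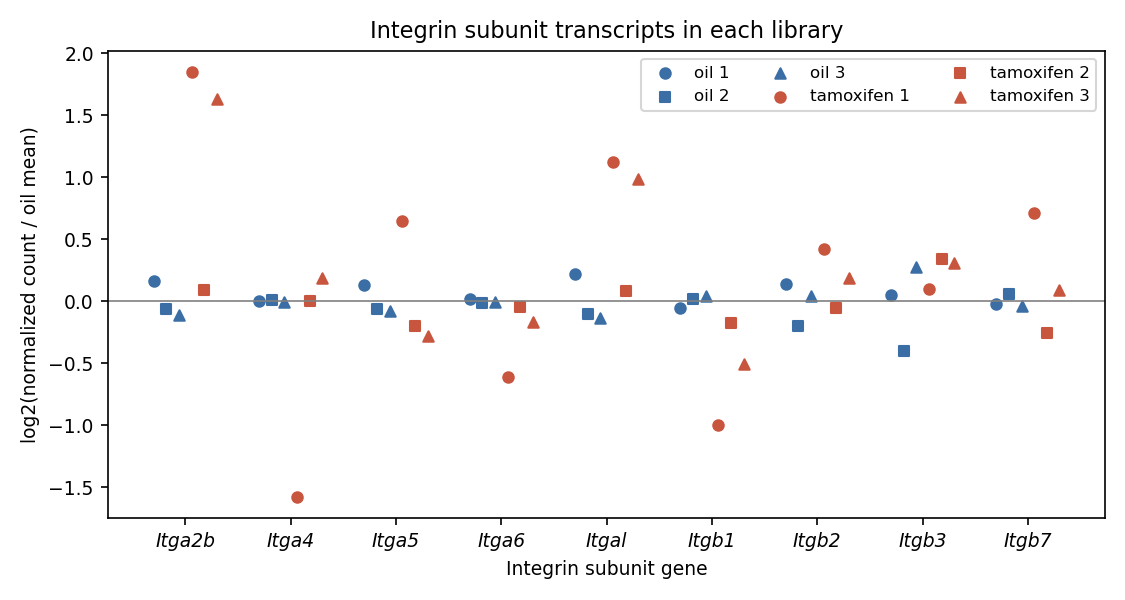
Log2 ratio of the normalized count in each library to the mean of the 3 libraries labelled oil, for 9 integrin subunit genes. Oil libraries are blue and tamoxifen libraries red, with a circle, square or triangle for replicate 1, 2 or 3: tamoxifen 1 is the lowest point for Itga4, Itga6 and Itgb1 and the highest for 5 genes, and tamoxifen 3 lies beside it for Itga2b and Itgal.

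The position of tamoxifen 1 followed the base composition of the member. It was the lowest of the 6 libraries for 3 members, Itga4, Itga6 and Itgb1, whose longest transcripts have 41.1%, 48.9% and 44.8% GC. It was the highest for 5 members, Itga2b, Itga5, Itgal, Itgb2 and Itgb7, with 53.1% to 58.2% GC. For Itgb3, with 52.1%, it was neither. This library was the lowest of the 6 for 41.6% of all tested genes and the highest for 41.1%, so extreme positions in it were usual. Its deviation from the median of the other 5 libraries ran from −1.58 for Itga4 to 1.75 for Itga2b on the log2 scale. Over all tested genes the median deviation was −1.15 for genes under 45% GC, −0.23 from 45% to 50%, 0.34 from 50% to 55% and 0.84 from 55% upwards. Spearman's rho between deviation and GC content was 0.95 over the 9 members and 0.684 over 12134 genes, given as a description, since the genes share the same libraries. Subtracting each library's GC trend changed the fold change of Itga4 from −0.46 to −0.03, that of Itgb7 from 0.18 to −0.10 and that of Itga5 from 0.06 to −0.20. Those of Itgal (0.61), Itga2b (0.91) and Itgb1 (−0.33) kept their sign, and none of the 9 passed the adjusted threshold.

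**Figure D4:**
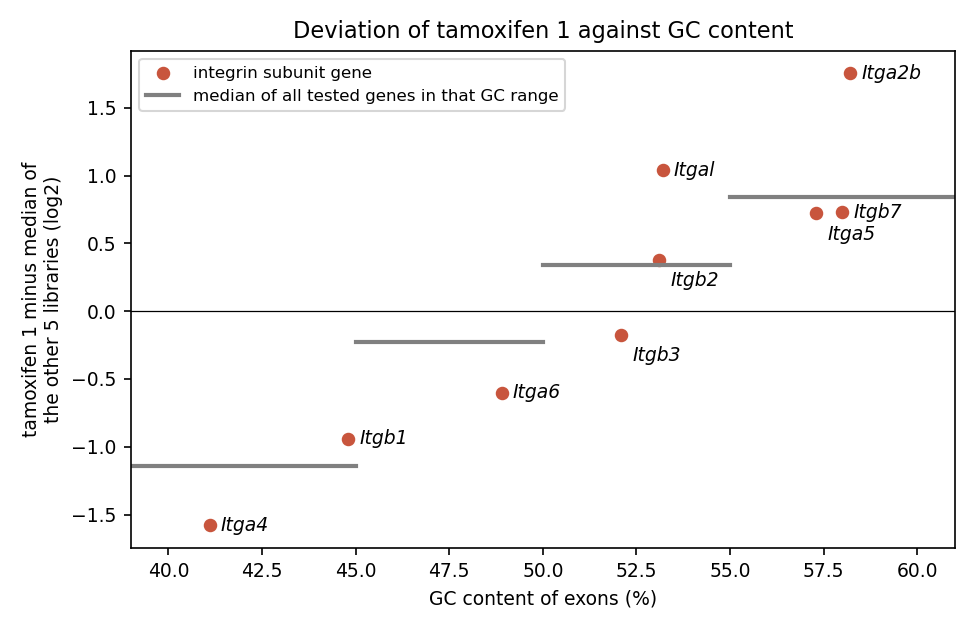
Log2 difference between tamoxifen 1 and the median of the other 5 libraries against the GC content of a gene's longest transcript (axis label: exons). Red points are 9 integrin subunit genes and grey lines are medians of all tested genes in 4 GC ranges: both run from negative values at low GC content to positive values at high GC content, and Itga2b lies 1.75 above the other libraries.

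Tamoxifen 1 and 3 both lay above all 4 other libraries for 4 members, Itga2b, Itgal, Itgb2 and Itgb7, a pattern picked out after the values were seen. This held for 12.9% of all tested genes. For Itgb2 and Itgb7 the margin of tamoxifen 3 over the highest of those 4 was small (1034 against 1002 and 11999 against 11763). For Itga2b and Itgal it was 531 against 191 and 2556 against 1500.1.

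As an integrin is a pair, the level per kilobase of each α subunit was divided by that of its β partner in 6 pairs; Itgam to Itgb2 gave no value. The ratio is of transcripts, not of surface protein. The ratio of Itga4 to Itgb1 was 0.0916, 0.0876 and 0.0847 in oil and 0.0589, 0.0993 and 0.142 in tamoxifen. Tamoxifen 1 was below and tamoxifen 2 and 3 above all oil libraries. Its log2 difference was 0.10 (exact two-sided permutation p = 0.7, n = 3 per group), and 0.43 (exact p = 0.2, the smallest that 2 against 3 libraries can give) without tamoxifen 1.

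Itga6 to Itgb1 was 0.103, 0.0960 and 0.0944 in oil and 0.128, 0.107 and 0.123 in tamoxifen. Itgal to Itgb2 was 0.696, 0.702 and 0.584 in oil and 1.07, 0.727 and 1.15 in tamoxifen. In both pairs all 3 tamoxifen libraries were above all 3 oil libraries, with log2 differences of 0.28 and 0.55. The exact permutation p was 0.1 for each, the smallest that 3 against 3 can give, and 0.3 when adjusted over the 6 pairs. Without tamoxifen 1 the differences were 0.23 and 0.47.

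The other 3 pairs overlapped between groups. Itga4 to Itgb7 was 0.126, 0.119 and 0.126 in oil and 0.0253, 0.147 and 0.133 in tamoxifen, with a log2 difference of −0.65 that turned to 0.18 without tamoxifen 1. Itga5 to Itgb1 was 0.0469, 0.0389 and 0.0378 in oil and 0.129, 0.0405 and 0.0480 in tamoxifen, a difference of 0.62, and 0.10 without tamoxifen 1. Itga2b to Itgb3 was 5.24, 6.13 and 3.68 in oil and 16.3, 4.06 and 12.2 in tamoxifen, a difference of 0.92, and 0.52 without tamoxifen 1. The Itga2b transcript thus exceeded that of its partner in every library.

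**Figure D5:**
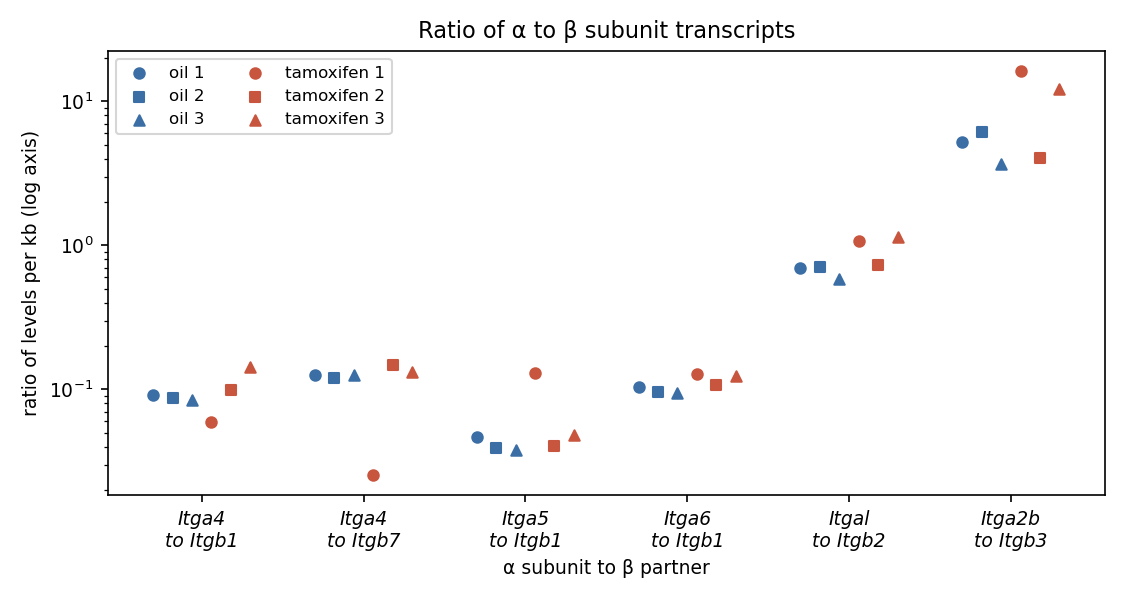
Ratio of the level per kilobase of an α subunit to that of its β partner (log axis) for 6 pairs. Points are libraries, blue for oil and red for tamoxifen: the groups do not overlap for Itga6 to Itgb1 and Itgal to Itgb2, and tamoxifen 1 is far below the others at 0.0253 for Itga4 to Itgb7.

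The promoters of Itga4 and Itgb1 are shown because VLA-4 is their product and the AML1 part of AML1-ETO is a RUNX protein that binds DNA. Of the 10 members, 6 had an entry in the RefSeq promoter table (GRCm38.p6), namely Itga2b, Itga4, Itga5, Itgam, Itgb1 and Itgb7. Those of Itga4 and Itgb1 are printed as the 250 bases before the start site, on the strand of the gene, with matches in capitals.
Itga4 (chr2:79255176-79255425, plus strand): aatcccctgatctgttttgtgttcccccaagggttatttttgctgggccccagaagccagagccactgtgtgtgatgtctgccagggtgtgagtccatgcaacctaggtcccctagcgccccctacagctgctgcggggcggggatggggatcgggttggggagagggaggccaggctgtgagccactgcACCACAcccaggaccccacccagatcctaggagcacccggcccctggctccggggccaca
Itgb1 (chr8:128685404-128685653, plus strand): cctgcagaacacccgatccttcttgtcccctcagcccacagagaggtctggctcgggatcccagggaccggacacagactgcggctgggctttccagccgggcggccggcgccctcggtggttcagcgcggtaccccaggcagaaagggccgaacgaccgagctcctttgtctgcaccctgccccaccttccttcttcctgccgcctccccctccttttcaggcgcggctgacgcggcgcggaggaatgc

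Windows of 300 bases, with 250 before the start site, were searched on both strands for 4 motifs. The capitals in Itga4 mark the RUNX motif TGTGGT read on the minus strand, beginning 60 bases before the start site, and 16.8% of 32851 promoters hold this motif. Itgb1 has no match in the printed bases, but the ETS motif CCGGAA lies on its minus strand 3 bases after the start, as in 14.9% of promoters. Itga2b has a match to the core of the interferon-stimulated response element (GAAA repeated after any 2 bases) 118 bases before its RefSeq start, found in 3.44% of promoters. The GATA motif AGATAA, held by 11.2% of promoters, was in none of the 6 windows, and those of Itga5, Itgam and Itgb7 had no match to any of the 4. A match is a description of letters and not a site shown to be bound.

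Around the members, 94 other genes of integrin biology were read from the same fits in 6 lists by role, and 62 passed the filter. With all libraries none passed the adjusted threshold in limma, and DESeq2 called Src and Lama5, 2 of the 73 pathway genes with an adjusted p, beside 0.464% of all genes. Groups did not overlap for 9 genes that were higher and 7 that were lower, beside 7.86% and 9.69% of all tested genes. The median log2 fold change of the 62 was 0.19 with all libraries and 0.01 without tamoxifen 1. Without tamoxifen 1 a single gene of 62 passed in limma and in edgeR, Itga9, beside 0.333% and 0.364% of all genes. In DESeq2 5 of 62 passed, namely Itga9, Nedd9, Src, Lama5 and Cd53, beside 1.82% of all genes. Itga9 encodes the α subunit that pairs with Itgb1 as a receptor for tenascin and VCAM-1. It had 422, 401 and 407 normalized counts in oil and 344, 178 and 238 in tamoxifen, so all tamoxifen libraries were below all oil libraries. It fell by 0.99 on the log2 scale without tamoxifen 1, where 0.0244% of all genes were called lower (adjusted p 0.0268 in limma, 0.0377 in edgeR), whereas with all libraries it was −0.74 (adjusted p 0.666).

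Among the 17 other integrin subunits, 8 were tested. The highest per kilobase were Itgb4, the laminin receptor subunit that pairs with Itga6, Itgav of the vitronectin receptors, and Itga9. Itgb4 had 279, 309.7 and 253 in oil and 735, 367 and 423 in tamoxifen, with groups that did not overlap and a log2 fold change of 0.79 (adjusted p 0.666 in limma), and 0.49 (adjusted p 0.191) without tamoxifen 1. Itgav had 486 to 525 in oil and 445 to 588 in tamoxifen, which overlapped.

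Of the 15 activators, 12 were tested, and none passed in limma. Fermt3 (kindlin-3) had 15253 to 15766 normalized counts in oil, 36765 in tamoxifen 1 and 14731 and 14972 in tamoxifen 2 and 3. Tln1 (talin) likewise had 17314 to 20085 in oil, 46399 in tamoxifen 1 and 19184 and 20191 in the others. Rap1a, the small GTPase that recruits talin, had 3295 to 3690 in oil and 602, 3179 and 3204 in tamoxifen, and was lower in all 3. All 7 inhibitors were tested: Flna (filamin), which competes with talin for the β tail, had 7045 to 7760 in oil and 7744 to 9661 in tamoxifen. Sipa1, which inactivates Rap1, had 1913 to 2547 and 2002 to 5432, and Dok1 had 908 to 960.2 and 825 to 1260.2, so these 3 overlapped between groups.

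Of 25 adaptors and kinases, 20 were tested. Parvg (γ-parvin) had 13986 to 14215 in oil and 13703 to 21575 in tamoxifen, Vasp 7392 to 7669 and 7335 to 14277, and Actn4 6422 to 7362 and 6385 to 12820.2. Ilk, the kinase-like partner of the parvins, had 0 to 5.11 normalized counts, but 89.7% of its exon bases lie in genes of the opposite strand, so it cannot be read as absent. Src was higher in all 3 tamoxifen libraries (79.9, 34.7 and 48.3 against 221, 100.02 and 206), at 1.67 on the log2 scale (adjusted p 0.666 in limma) and 1.47 (adjusted p 0.181) without tamoxifen 1. In DESeq2 it passed with all libraries (1.69, adjusted p 0.0416) and without tamoxifen 1 (1.51, adjusted p 0.0121).

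Of 20 ligands, 6 were tested, and none passed in limma with or without tamoxifen 1. Lama5, a laminin chain, had 31.4, 8.68 and 16.7 in oil and 209.6, 27.3 and 159 in tamoxifen, and the groups overlapped through tamoxifen 2. Its log2 fold change was 2.47 (adjusted p 0.666 in limma) and 1.93 (adjusted p 0.317) without tamoxifen 1, and it passed in DESeq2 in both cases (2.80 and 2.32, adjusted p 0.0291 and 0.0209). Lamc1, another laminin chain, had 8245 to 8831 in oil and 8506 to 13542 in tamoxifen, and the LFA-1 ligands Icam2 and Icam1 had 1768 to 2168 and 397 to 486 in oil and 1999 to 2525 and 437 to 1108 in tamoxifen. Vcam1, the counter-receptor of VLA-4, was low, with 55.7, 13.5 and 26.0 in oil and 24.3, 98.0 and 70.9 in tamoxifen. Fibronectin (Fn1) did not exceed 5.11, and Madcam1 had 1 read in a single library. Of 10 tetraspanins and membrane partners, 9 were tested. Bsg (basigin) had 8550.3 to 9932 in oil and 5744, 8386 and 6783 in tamoxifen and was lower in all 3. Slc3a2, which binds β tails, had 7592 to 8253 and 8219 to 12796, and Cd47 had 16448 to 17853 in oil and 4287, 16122 and 18498 in tamoxifen.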

How the data were processed

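The table deposited by the authors holds a signal, namely each gene's reads after division by the size factor of the library. Per the labels and the study's methods, reads were aligned with STAR to mm10 and processed with DESeq2; annotation version, counter and strand setting are not given in the sources used here. Every value above 0 was a whole multiple of its library's step (100%, tolerance 0.001 reads), and whole reads were recovered by division. Rows without a gene name (1832 of 55450, 0.0400% to 0.0614% of reads) were left out. Exon length, GC content and coordinates were taken by symbol from GENCODE vM21 (51842 of 53618 named rows matched), promoters from RefSeq. GC content is that of a gene's longest transcript.

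limma 3.58.1 (R 4.3.3, lmFit, eBayes with trend) was run on log2(value + 1) for the 12298 genes that reached 10 in 3 or more libraries, two-sided, with Benjamini-Hochberg adjustment over all of them. Fold changes are on that scale, which understates low genes. DESeq2 1.42.0 and edgeR 4.0.16 were run on recovered reads as alternatives. Alternatives also covered TMM scaling, pseudocounts of 0.5 and 5, no filter, library weights, a loess correction for GC content (span 0.3), a replicate block and each library left out. In simulated data of 12298 genes with 200 changed by 2 on the log2 scale, limma recovered 98% and called 7 unchanged genes. The simulation gave all libraries the same spread and held none that stood apart as tamoxifen 1 did. It therefore checks the code and does not measure what could be detected in the real libraries. The members, the 6 pathway lists and the 11 marker lists were chosen with earlier results of these data known. Genes named were the members, Usp18, pathway genes past the threshold, the 3 highest per list per kilobase, and leading markers; Src, Lama5, Nedd9, Cd53, Vcam1, Fn1, Madcam1, Ilk, Itgax and the other marker genes given were picked once the values were known. The replicate is the mouse. The result of 1 marker gene is not reported here.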

Additional observations from a re-analysis of the deposited data

How the results depend on the processing

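Of 144 values of the 9 tested integrin genes under alternatives, 132 kept direction and side of the threshold, and 6 genes kept their direction throughout. The count of genes called was 0 in limma over 6 libraries, 71 with DESeq2, 782 with library weights (tamoxifen 1 had a weight of 0.0377), 2 with the GC correction, and 0 to 41 when 1 library was left out, with 41 without tamoxifen 1. Of the 9 tested members, library weights called 3, beside 782 of all 12298 tested genes. These were Itga2b (1.31, adjusted p 0.0160), Itgal (0.82, 0.0173) and Itgb1 (−0.44, 0.0188). Of the pathway genes DESeq2 called 2, Src and Lama5, and limma called 0 to 1 with a library left out. Library weights called 13 of 62 pathway genes, beside the same 782 of 12298. Without tamoxifen 1, DESeq2 called 231 genes and edgeR 46. Of the pathway genes they called 5 and 1 there, counts that were added after the data were seen. Usp18 passed with library weights (0.52, adjusted p 0.0348).

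Itga4 turned to 0.13 with library weights and ranged from −0.79 to 0.093 with a library left out. Itga5 turned to −0.24 with library weights and −0.20 with the GC correction, alone or with the replicate block, and ranged from −0.24 to 0.23. Itgb7 turned to −0.10 with the GC correction, with or without the block, and ranged from −0.083 to 0.40. Itgb2 and Itgb3 kept their sign. With a library left out, Itgb2 ranged from 0.07 to 0.31 and Itgb3 from 0.083 (without oil 2) to 0.41. The sign changes came with tamoxifen 1 removed or weighted down, or with the GC trend removed; the cause was not tested. With the longest transcript in place of all exons, Itga4 stood at 658, Itga6 at 1077 and Itga2b at 89.3 normalized counts per kilobase. With all exons these were 459, 514 and 56.3, and the subunit shares given above rest on all exons. With a library left out, the log2 difference of Itga4 to Itgb1 ranged from −0.20 (without tamoxifen 3) to 0.43, and that of Itga4 to Itgb7 from −1.09 to 0.18 (without tamoxifen 1). In the DESeq2 fit, which took in 24247 genes, the median log2 fold change of all genes was 0.11.

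Same-numbered libraries did not deviate together (correlations −0.02, 0.06 and −0.15). These values cannot decide whether the numbers pair mice, since the tamoxifen group holds the library that stood apart. With the replicate block 0 genes were called. The simulated check covered only a log2 change of 2, so what smaller change could be detected with 3 mice a group was not measured.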
